A study of Mus musculus with 22 samples.

Results

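The genes described here are Upb1, Dpys and Dpyd, which encode the enzymes of the pyrimidine breakdown pathway. They are 3 of the 37991 genes in the RNA-seq count files and 3 of the 22350 protein-coding genes for which methylation windows were drawn. They were chosen by name, with the RNA-seq difference of Upb1 between the genotypes already known, so the RNA values below are a description and carry no test. Methylation by genotype and by stage was not the measure used in the choice and is tested, although earlier results of these data were known.

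Uracil and thymine are broken down in sequence by these enzymes. Dihydropyrimidine dehydrogenase (Dpyd) reduces the pyrimidine ring and is the rate-limiting step, dihydropyrimidinase (Dpys) opens the reduced ring, and beta-ureidopropionase (Upb1) removes ammonia and carbon dioxide from the product to leave beta-alanine or beta-aminoisobutyrate. The pathway is most active in hepatocytes, and Dpyd also clears the drug 5-fluorouracil.

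Both genotypes share a background: strain FVB in the labels, the FVB/NJ colony Line3 in the methods, in which the mutation arose in an ENU screen. Wild-type and mutant mice alike have on both chromosomes an array of a GFP reporter that human alpha-globin regulatory DNA (promoter and HS-40 enhancer) switches on in red blood cells. Wild-type (Rlf+/+) mice were compared with Rlf MommeD28/MommeD28 mutants, which carry an ENU-induced null allele of the zinc finger gene Rlf on both chromosomes and came from matings of heterozygotes. Whole genome bisulphite sequencing (WGBS) covered 2 wild-type and 2 mutant samples each of E10.5 whole embryo (all male), E14.5 liver (replicate 1 male and replicate 2 female in both genotypes, littermates) and E18.5 liver (all female). Polyadenylated RNA was sequenced from 3 wild-type and 3 mutant E14.5 livers, with replicates 1 and 2 male and replicate 3 female in both genotypes. The 4 H3K4me1 ChIP-seq samples of E14.5 liver were not analysed here.

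The RNA-seq libraries held 12928313 to 14621004 counted reads. Rlf itself had 918, 1094 and 982 reads (wild-type) and 983, 1106 and 963 reads (mutant), but a point mutation need not lower its RNA, so this does not check the labels. All 12 hepatoblast and hepatocyte markers examined were detected. The WGBS libraries held 319816606 to 362947067 reads over CpGs at E10.5, 628890633 to 710948789 at E14.5 and 346347934 to 357279702 at E18.5. Over all CpGs the percentage of methylated reads was 70.7% and 72.0% in the wild-type and 73.3% and 74.0% in the mutant E10.5 embryos, 56.4% and 58.5% against 60.3% and 59.2% in E14.5 liver, and 61.4% and 61.7% against 65.5% and 61.4% in E18.5 liver. E18.5 mutant replicate 1 stood apart from the other 3 E18.5 libraries, so genotype differences averaged over the stages are also given without it.

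Upb1 (ENSMUSG00000033427) spans 34.8 kb of the plus strand at chr10:74869656-74904424 (mm9) and lies inside the longer minus-strand gene 1110038D17Rik, with which it shares 0 exonic bases. Dpys (ENSMUSG00000022304) spans 89.0 kb of the minus strand at chr15:39600031-39689016. Dpyd (ENSMUSG00000033308) is much the longest, with 870.8 kb of the plus strand at chr3:118265047-119135836. Methylation of CpGs in the first exon and the bases just before it is among the results given below. Parts of these stretches are shown as the mm9 reference has them, 5′ to 3′ on the strand of the gene, with each CpG in capitals. For Upb1 these are the 250 bases before the transcription start site (TSS), chr10:74869406-74869655, with 7 CpGs, and the coding part of the first exon, chr10:74869801-74869904, with 6 CpGs. The coding part of the first exon of Dpys, chr15:39688645-39688908, holds 23 CpGs, and the 250 bases before the Dpyd TSS, chr3:118264797-118265046, hold 9.
Upb1, before the TSS: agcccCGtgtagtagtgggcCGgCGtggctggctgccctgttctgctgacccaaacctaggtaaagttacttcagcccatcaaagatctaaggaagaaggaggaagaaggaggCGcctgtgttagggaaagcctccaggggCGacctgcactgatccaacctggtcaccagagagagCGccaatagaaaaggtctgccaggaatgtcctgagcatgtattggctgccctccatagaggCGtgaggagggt
Upb1, first coding exon: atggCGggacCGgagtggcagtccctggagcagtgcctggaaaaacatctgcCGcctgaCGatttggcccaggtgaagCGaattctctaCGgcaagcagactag
Dpys, first coding exon: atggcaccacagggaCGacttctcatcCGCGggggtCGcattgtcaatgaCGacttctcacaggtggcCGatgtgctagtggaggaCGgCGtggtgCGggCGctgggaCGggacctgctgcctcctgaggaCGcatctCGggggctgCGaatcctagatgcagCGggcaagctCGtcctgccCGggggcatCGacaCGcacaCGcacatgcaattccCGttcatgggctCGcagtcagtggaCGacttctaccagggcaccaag
Dpyd, before the TSS: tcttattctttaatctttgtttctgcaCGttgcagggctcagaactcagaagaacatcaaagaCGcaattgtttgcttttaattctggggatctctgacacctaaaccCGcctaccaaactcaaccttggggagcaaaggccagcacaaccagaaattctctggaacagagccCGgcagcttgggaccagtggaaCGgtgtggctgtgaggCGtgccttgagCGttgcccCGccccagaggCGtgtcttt

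The 250 bases before the TSS hold a median of 8 CpGs over the 22350 genes. The 7 of Upb1 and the 9 of Dpyd sit close to that median, with 52.5% and 46.9% of genes having more, while Dpys has 2 and 75.5% of genes have more. Within 1 kb to each side of the TSS the files hold 38 CpGs for Upb1, 59 for Dpys and 57 for Dpyd. The levels of methylation in these wider windows were far apart, as given below: most reads were methylated at Upb1, and few at Dpys and Dpyd. Any part of CpG content in this was not tested.

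In the E14.5 liver, Upb1 RNA was lower in the mutants, Dpys RNA overlapped between the genotypes and Dpyd RNA was slightly higher in the mutants. Wild-type livers had 471, 500 and 575 reads for Upb1, and mutant livers had 137, 140 and 128. Scaled to library size as CPM, with edgeR's library factors, this was 35.9, 33.0 and 40.3 against 10.6, 10.1 and 8.99, a mean of 36.4 ± 3.67 against 9.91 ± 0.84 (SD, n = 3). Every mutant liver lay below every wild-type liver, and the spread within each genotype was small beside the gap. The mutants had 27.2% of the wild-type level, a log2 difference of -1.88 with a standard error of 0.107. Among 14183 genes tested, Upb1 had the 9th largest fall, whereas the median absolute log2 difference of all genes was 0.10. The estimate lay between -1.95 and -1.80 when each library was left out in turn.

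For Dpys the reads numbered 220, 146 and 200 in wild-type livers against 153, 170 and 154 in mutants. In CPM these were 16.8, 9.65 and 14.0 against 11.9, 12.3 and 10.8. The wild-type livers spanned the whole mutant range, with wild-type replicate 2 the lowest of all 6. The log2 difference was -0.21 with a standard error of 0.172, so Dpys differed by about as much as its own error. It was -0.0205 without wild-type replicate 1 and -0.40 without wild-type replicate 2, the ends of the range with 1 library left out.

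For Dpyd they numbered 162, 153 and 174 in wild-type livers against 169, 193 and 216 in mutants. In CPM these were 12.4, 10.1 and 12.2 against 13.1, 13.9 and 15.2. The groups did not overlap, but the gap between the lowest mutant and the highest wild-type liver was smaller than the SD within either genotype (1.26 and 1.03 CPM), and the log2 difference was 0.29 with a standard error of 0.119. Upb1 and Dpyd thus both had groups that did not overlap, in opposite directions. Over all genes tested, 20.3% had groups that did not overlap in either direction, and 1.39% passed an adjusted p of 0.05 in edgeR's quasi-likelihood test (197 genes, 99 higher and 98 lower in the mutants). With a replicate block 460 genes passed, 263 of them higher.

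**Figure D1:**
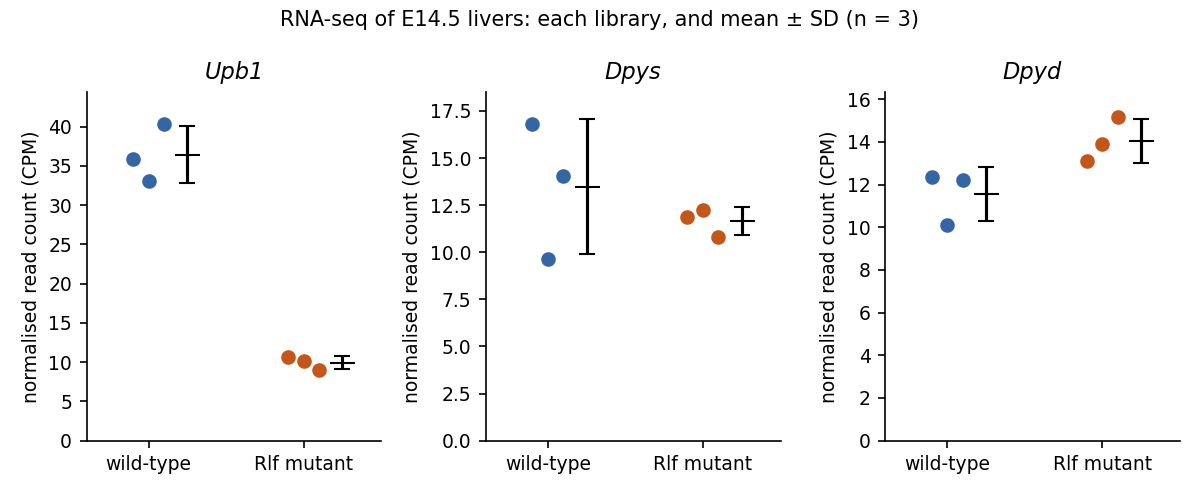
RNA of Upb1, Dpys and Dpyd in E14.5 liver. Each point is 1 library (blue, wild-type; orange, mutant), the y axis is the normalised read count in CPM and starts at 0, and the bars are the mean and SD of 3 livers. The 3 mutant livers lie near 10 CPM for Upb1 and the 3 wild-type livers between 33.0 and 40.3, the Dpys groups overlap, and the Dpyd mutants lie just above the wild-type livers.

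Levels were compared between the enzymes per length of exon. The lengths, 6599 bases for Upb1, 3039 for Dpys and 8052 for Dpyd, join the exons of all annotated transcripts. These include transcripts with retained introns for Upb1 and Dpyd but not for Dpys, so the order of the genes depends on the annotation. In wild-type livers Upb1 had the highest level, 5.52 ± 0.557 RPKM (reads per kilobase of exon, scaled to library size as for CPM; SD, n = 3), followed by Dpys at 4.44 ± 1.18 and Dpyd at 1.44 ± 0.156. Upb1 and Dpys did not differ beyond their spread there. In the mutants the order was Dpys at 3.83 ± 0.248, Dpyd at 1.75 ± 0.128 and Upb1 at 1.50 ± 0.127 RPKM, and the last pair lay within the sum of their SDs.

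The markers of cell types in the liver moved in several ways between the same libraries. The summed level of the 12 hepatoblast and hepatocyte markers was 58400 to 69257 CPM in the wild-type and 71342 to 82789 CPM in the mutant livers. Alb and Afp, which encode albumin and alpha-fetoprotein, made up 87.3% of this sum and neither was called (adjusted p = 0.151 and 0.354). The other 10 summed to 7936 to 9232 CPM in wild-type and 8777 to 9982 CPM in mutant livers, which overlap. Of all 12, 1 was called higher (Trf, transferrin, log2 difference 0.46, standard error 0.0876, adjusted p = 0.0289) and 0 lower. The 10 erythroid markers summed to 29912 to 54934 CPM in wild-type and 37038 to 40215 CPM in mutant livers, with 0 called. Among 6 macrophage markers 1 was called lower (Cd5l), and their sum was 337 to 385 CPM against 270 to 303 CPM. Of 4 neutrophil markers 3 were called lower (Elane, Ltf and S100a8), with sums of 483 to 688 CPM against 436 to 507 CPM. Of 3 megakaryocyte markers 1 was called higher (Pf4), with sums of 257 to 266 CPM against 323 to 356 CPM. The 4 endothelial markers summed to 193 to 211 CPM against 216 to 257 CPM and the 5 mesenchymal markers to 572 to 737 CPM against 620 to 906 CPM, with 0 called in either list. No marker was at 0 in these lists. In whole liver, fewer cells of a type and less RNA per cell cannot be told apart, and the part of these shifts in the Upb1 difference was not tested.

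Other genes of pyrimidine metabolism around the pathway were measured in the same libraries. Of 38 genes of pyrimidine metabolism and of the fate of beta-alanine, 37 were tested and 0 were called higher or lower (edgeR, adjusted over all genes), against 1.39% of all genes, and their median log2 difference was -0.08 against -0.0017 over all genes. Of these, Dut passed under other fits, as given below. The 10 genes that act before ring reduction, such as the uridine and thymidine phosphorylases Upp1 and Tymp, had a median of -0.06. The 7 tested genes that handle beta-alanine and beta-aminoisobutyrate downstream of Upb1 had a median of -0.00355. Among them Abat, the transaminase of beta-alanine, had 49.8 ± 3.15 CPM in wild-type and 44.1 ± 4.22 CPM in mutant livers (SD, n = 3, log2 difference -0.18, standard error 0.0831, edgeR adjusted p = 0.355), and Agxt2, the transaminase of beta-aminoisobutyrate, had 35.4 ± 4.01 and 35.3 ± 1.27 CPM (log2 difference -0.0013, adjusted p = 0.997). Carnosinase Cndp1 had 0 reads in every library, which says only that it was not detectable at this depth.

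The 13 genes of de novo synthesis had a median log2 difference of -0.12 and the 7 salvage genes one of -0.0069. The highest levels per length in the lists belonged to Rrm2 (211 ± 21.2 RPKM in wild-type and 187 ± 16.0 RPKM in mutant livers, edgeR adjusted p = 0.387) and Rrm1 (167 ± 5.96 and 148 ± 6.42 RPKM, adjusted p = 0.225), the subunits of ribonucleotide reductase, which makes deoxyribonucleotides. The next was Dut, which hydrolyses dUTP, with 92.9 ± 2.26 and 77.2 ± 3.84 RPKM (log2 difference -0.27, standard error 0.0635, adjusted p = 0.0641). Dut passed the threshold in the fit with a replicate block (adjusted p = 0.0235).

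Upb1 belongs to the nitrilase family. Its 5 relatives there had a median log2 difference of -0.18, and none fell or rose past the threshold: the nearest was Vnn1, a pantetheinase, at 11.9 ± 1.49 CPM in wild-type and 16.5 ± 2.60 CPM in mutant livers (log2 difference 0.47, standard error 0.139, edgeR adjusted p = 0.133). With the replicate block Vnn1 passed (adjusted p = 0.0267). The family members Nit1 and Nit2, an amidase pair, had log2 differences of -0.18 and 0.10 (adjusted p = 0.265 and 0.546). The dihydropyrimidinase-like relatives of Dpys, which act in neurons and are not pyrimidine enzymes, had a median of 0.01 over the 4 tested, and Dpysl4 had too few reads, 2 to 8 a library.

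The genes next to the members were measured in the same libraries. 1110038D17Rik, whose span holds Upb1 on the other strand, had 3032, 2788 and 2676 reads in wild-type and 2480, 2610 and 2484 in mutant livers (log2 difference -0.12, standard error 0.0878, edgeR adjusted p = 0.582). Counting did not use strand. Only exonic reads were counted and the genes share 0 exonic bases in the annotation used here. Reads from unspliced RNA of 1110038D17Rik on Upb1 exons would still count for Upb1, which was not tested. Lrp12, a low density lipoprotein receptor relative near the start of Dpys, had 161, 215 and 242 reads against 229, 227 and 255 (log2 difference 0.26, standard error 0.123, adjusted p = 0.358). No other protein-coding gene overlapped the 50 kb to each side of a member's TSS. Regions farther from the TSS, such as those past the ends of Dpys and Dpyd, were not searched.

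The genes with the RNA pattern most like each member over the 6 libraries were found by the root mean square distance between centred log2 CPM, over 13633 genes with a mean of at least 1 CPM. For Upb1 they were Timd2 (distance 0.0813), Apoc1 (0.168) and Zfp783 (0.24). Timd2, a ferritin receptor, had 71.8, 59.9 and 71.0 CPM in the wild-type and 19.9, 18.2 and 18.46 CPM in the mutant livers. Apoc1, an apolipoprotein made by hepatocytes, had 191.7, 144.9 and 155 CPM against 44.2, 52.7 and 41.5 CPM. For Dpys the nearest were Gm17259 (0.06), Dtwd2 (0.0658) and Sh3yl1 (0.0707), all with wild-type replicate 2 as the lowest library. For Dpyd they were Gm7809 (0.0418), Gm8261 (0.0471) and Zfp715 (0.0484). The genes nearest to Upb1 had log2 differences of -1.84, -1.83 and -1.68. The choice by distance itself brings about falls of a like size, so this is not a separate result.

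Turning to methylation, the TSS windows (1 kb to each side) of Upb1 and Dpys were more methylated in the mutants at every stage, and that of Dpyd was not. For Dpys the call was lost without 4 CpGs far upstream, as given below. Each window value is the percentage of methylated reads summed over the CpGs that every one of the 12 libraries covered with 6 reads or more. The Upb1 window, chr10:74868656-74870656, held 30 such CpGs with 680 to 1496 reads a library. Read numbers of windows and CpG groups are sums over CpGs, so a read over several CpGs counts once for each. At E10.5 the Upb1 window was 64.0% and 70.4% methylated in the wild-type and 80.0% and 77.9% in the mutant embryos. At E14.5 the values were 64.0% and 65.6% against 72.3% and 70.7%. At E18.5 they were 69.1% and 70.1% against 75.9% and 74.6%.

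Both mutants lay above both wild-type samples in each of the 3 stages for Upb1. The group means were 67.2% ± 4.59 and 79.0% ± 1.48 at E10.5, 64.8% ± 1.18 and 71.5% ± 1.10 at E14.5, and 69.6% ± 0.718 and 75.3% ± 0.93 at E18.5 (SD, n = 2). The differences of 11.8, 6.69 and 5.70 points exceeded the SDs of both groups at every stage. Their mean was 8.05 points, with a two-sided exact permutation p of 0.00926 within stages, the smallest that 216 arrangements can give. In edgeR's quasi-likelihood test on methylated and unmethylated reads the mean difference passed with an adjusted p of 0.00866 (log2 odds ratio 0.58). It held without any 1 of the 12 libraries, and was 7.83 points (adjusted p = 0.0286) without E18.5 mutant replicate 1.

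Of the 20675 genes with a TSS window, 4.43% passed this test (890 higher and 26 lower in the mutants), and 7.41% had both mutants above both wild-type samples in all 3 stages. The median gene differed by 0.43 points. Within single stages Upb1 did not pass in this fit: the adjusted p was 0.0662 at E10.5, where 0.609% of genes passed, 0.457 at E14.5, where 0.121% passed, and 0.547 at E18.5, where 0.198% passed. With a replicate block the E10.5 difference passed, as given at the end. A test of whether the genotype difference changed with stage gave no member an adjusted p below 0.964, so the larger value at E10.5 was not shown to differ from those in liver.

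The Dpys window, chr15:39688016-39690016, was little methylated and held 32 measured CpGs with 742 to 1555 reads a library. At E10.5 its level was 4.65% and 4.83% in the wild-type and 7.01% and 6.40% in the mutant embryos. At E14.5 it was 5.92% and 6.29% against 8.99% and 7.82%. At E18.5 it was 4.98% and 3.20% against 8.17% and 10.9%. Both mutants lay above both wild-type samples at each stage, with differences of 1.96, 2.30 and 5.46 points. At E10.5 this rested on 4 CpGs far upstream, since the genotypes overlapped over the 28 CpGs downstream of the TSS, as given below.

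The mean difference of Dpys was 3.24 points (two-sided exact permutation p = 0.00926, the smallest possible) and passed in edgeR with an adjusted p of 0.00787. Without E18.5 mutant replicate 1 it was 3.70 points (adjusted p = 0.00963). The call of Dpys depended on the window. With 500 bases to each side, which keeps only the 28 downstream CpGs, the difference was 2.44 points (edgeR adjusted p = 0.202). The call over the stages was thus lost without the 4 upstream CpGs, which differed by 15.5, -5.14 and 27.6 points by stage. With at least 10 reads per CpG the window differed by 2.44 points (edgeR adjusted p = 0.0508). The adjusted p within stages was 0.419, 0.551 and 0.0635, and the last passed with a replicate block, as given at the end.

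The Dpyd window, chr3:118264047-118266047, held 46 measured CpGs with 876 to 1970 reads a library, and mutants were not higher. Its level was 7.38% and 7.18% in the wild-type and 4.34% and 6.82% in the mutant embryos at E10.5. It was 7.36% and 6.81% against 6.97% and 6.10% at E14.5, and 5.87% and 5.55% against 7.36% and 4.95% at E18.5. The genotypes overlapped in both livers, and at E10.5 the mutants were the lower. The mean difference was -0.60 points (two-sided exact permutation p = 0.398, edgeR adjusted p = 0.639), or -1.0 points (adjusted p = 0.446) without E18.5 mutant replicate 1, and its sign changed with the width of the window. The Wilson 95% interval of a single library reached 2.40 to 3.43 points to each side for Upb1, 1.18 to 1.98 for Dpys and 1.11 to 1.60 for Dpyd. It covers counting error only, and is too narrow where 1 read was counted at several CpGs.

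**Figure D2:**
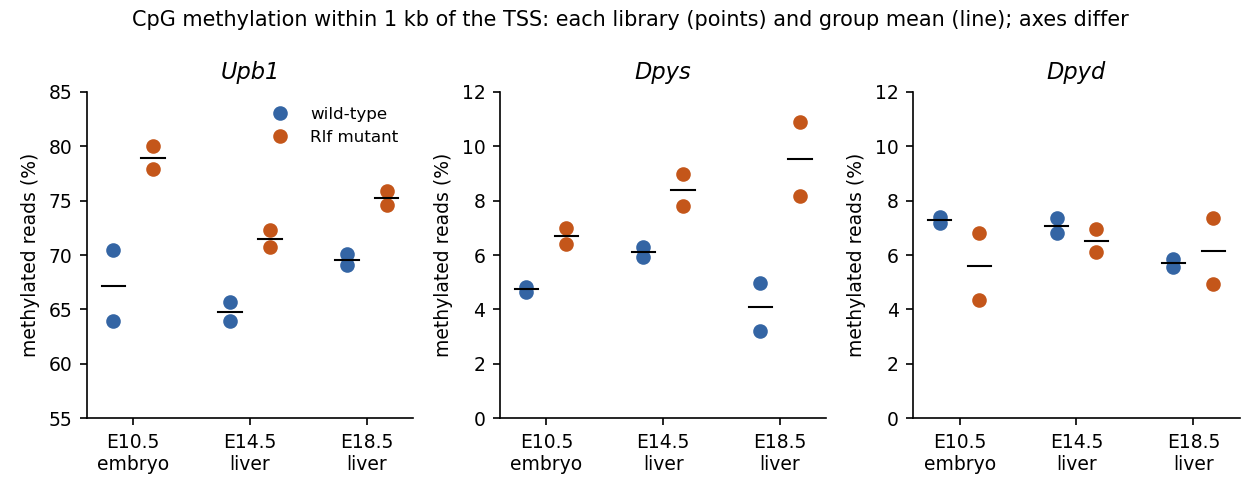
Methylation within 1 kb of the TSS of each gene, by stage and genotype. Each point is 1 library (blue, wild-type; orange, mutant), the lines are group means, the y axis is the percentage of methylated reads, and it runs from 55 to 85% for Upb1 and from 0 to 12% for Dpys and Dpyd. The mutants lie above the wild-type samples at each stage for Upb1 and Dpys, and the genotypes of Dpyd overlap in both livers.

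Over all measured CpGs of the window, the difference at Upb1 was larger downstream of the TSS than upstream at each stage. Of the 30 CpGs, 24 were higher in the mutants at E10.5, 23 at E14.5 and 22 at E18.5, and 15 were higher at all 3 stages against 1 that was lower at all 3. For this and the later counts of CpGs no share over all CpGs was computed. Of all 1 kb tiles of the genome, 80.6% were higher in the mutants as a mean over the stages. The 18 upstream CpGs, at -896 to -12 bases, differed by 3.83, 5.17 and 4.16 points at the 3 stages. The 7 of these within 250 bases of the TSS differed by 11.3, 10.6 and 5.73 points, more than the downstream CpGs at E14.5. The 12 downstream CpGs, at 40 to 933 bases, differed by 17.9, 8.24 and 8.20 points. The E18.5 differences were 2.45 points upstream and 9.63 points downstream without E18.5 mutant replicate 1. Their level was 48.5% and 59.7% in wild-type and 72.5% and 71.5% in mutant embryos at E10.5. At E14.5 it was 58.3% and 57.7% against 65.2% and 67.3%, and at E18.5 it was 61.9% and 65.0% against 70.2% and 73.1%. Neighbouring CpGs share reads, so these CpGs are not replicates.

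In the 6 CpGs of the first coding exon of Upb1, printed above, the level was 48.3% and 64.7% in the wild-type and 79.0% and 72.7% in the mutant embryos at E10.5. In E14.5 liver it was 65.8% and 61.4% against 74.3% and 71.9%. In E18.5 liver it was 66.9% and 73.1% against 77.2% and 78.4%. The genotypes did not overlap at any stage, and 5 of the 6 CpGs were higher in the mutants at all 3 stages. Summed over the 6 CpGs there were 145 to 324 reads a library, with 18 to 57 at a single CpG. In the 7 CpGs of the 250 bases before the TSS the values were 61.4% and 64.9% against 74.3% and 74.5%, then 58.9% and 57.6% against 70.0% and 67.7%, then 63.5% and 68.7% against 69.7% and 73.9%. Both mutants were above both wild-type samples at each stage, with 114 to 360 reads a library summed over the CpGs. Both stretches are parts of the TSS window and reuse its reads, so they are not further support. For such stretches no share over all genes was computed. Over whole TSS windows it was 7.41%.

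The CpG of Upb1 with the largest mean difference was chosen after its values were seen and has no test. It lies in the first exon 93 bases after the TSS, at chr10:74869749, and was covered by 21 to 47 reads. Its wild-type means were 47.5%, 57.4% and 53.3% by stage and its mutant means 70.3%, 70.6% and 74.4%.

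**Figure D3:**
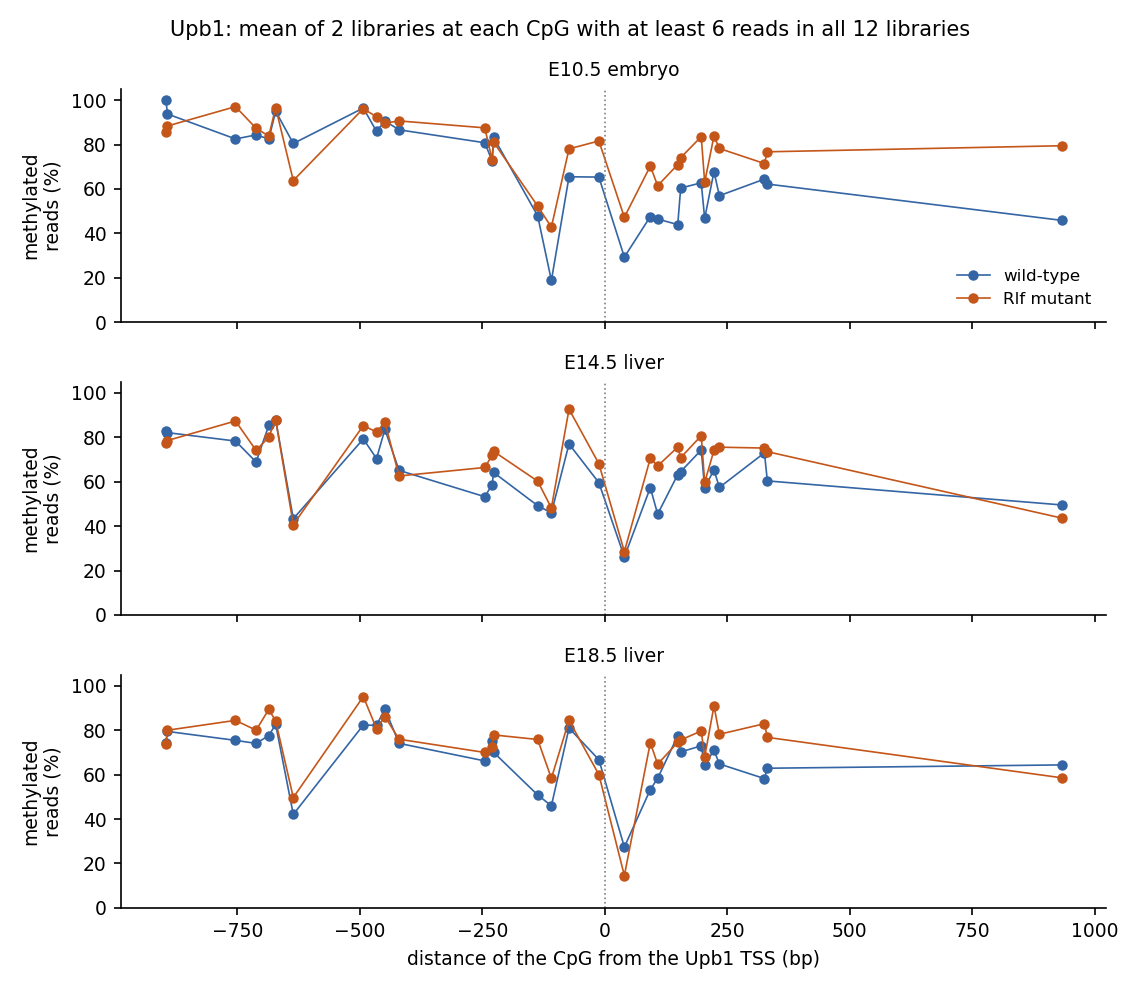
Methylation of the 30 measured CpGs within 1 kb of the Upb1 TSS, by stage. The x axis is the distance from the TSS in bases, the y axis the percentage of methylated reads, and the joined points are genotype means of 2 libraries (blue, wild-type; orange, mutant). Most mutant points after the TSS lie above the wild-type points, and at E18.5 the CpG at 40 bases is an exception, with 27.4% in wild-type and 14.6% in mutant livers.

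At Dpys, 18 of the 32 CpGs were higher in the mutants at E10.5, 27 at E14.5 and 29 at E18.5, with 13 higher and 0 lower at all 3 stages. The 28 CpGs downstream of the TSS, at 15 to 351 bases, differed by 0.429, 2.52 and 4.38 points. At E10.5 the genotypes overlapped there, with 2.24% and 1.13% in wild-type and 1.17% and 3.07% in mutant embryos. The 4 upstream CpGs lay 858 to 981 bases before the TSS, were far more methylated, from 27.5% to 77.2% in single libraries, and differed by 15.5, -5.14 and 27.6 points. At E18.5 they were 6.19 points downstream and 19.7 points upstream without mutant replicate 1. The 22 measured CpGs of the first coding exon of Dpys, printed above, were 1.16% to 7.50% methylated over the 12 libraries. The 250 bases before the Dpys TSS held 0 CpGs measured in all 12.

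The start of Dpyd was nearly free of methylation. Its 34 CpGs downstream of the TSS, at 10 to 674 bases, had 0% to 1.59% in every library. The 9 CpGs of the 250 bases before the TSS, printed above, had 0.637% to 3.54%. All 12 upstream CpGs together, which include these 9, had 15.9% to 30.6%, so most methylated reads of the window came from the other 3, farther from the TSS.

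Over the gene bodies the mean over the stages was slightly higher in the mutants for all 3 genes, as for most genes. None of the 3 passed edgeR's test with all libraries. Upb1 (304 CpGs) had 80.8% and 80.6% against 82.4% and 81.7% at E10.5, 58.6% and 62.2% against 63.6% and 62.9% at E14.5, and 66.2% and 64.7% against 71.1% and 66.7% at E18.5. The genotypes did not overlap at any stage, but the margin was under 1 point at each. The mean difference was 2.53 points (two-sided exact permutation p = 0.00926, edgeR adjusted p = 0.0812). Dpys (658 CpGs) and Dpyd (2162 CpGs) differed by 1.50 and 1.46 points (exact permutation p = 0.102 and 0.0463, edgeR adjusted p = 0.266 and 0.198), and their genotypes overlapped in both livers. Without E18.5 mutant replicate 2 the differences were 3.27, 2.15 and 1.97 points and all 3 passed (edgeR adjusted p = 0.00596, 0.0376 and 0.0147), and without E18.5 mutant replicate 1 they were 1.79, 0.84 and 0.952 points and none passed. Over all genes the median difference was 1.78 points, 91.4% of genes were higher in the mutants, 13.2% passed edgeR's test and 13.2% had both mutants above both wild-type samples at each stage.

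In the 50 kb to each side of the TSS, Upb1 passed with all libraries. Its region, chr10:74819656-74919656 with 830 CpGs, had 80.4% and 81.1% against 82.6% and 83.0% at E10.5, 59.7% and 63.5% against 65.1% and 63.8% at E14.5, and 66.6% and 66.7% against 72.5% and 68.8% at E18.5. Both mutants were above both wild-type samples at each stage. The mean difference was 2.96 points (exact permutation p = 0.00926, edgeR adjusted p = 0.00433). It was 2.35 points (adjusted p = 0.00427) without E18.5 mutant replicate 1, and 2.34 points (adjusted p = 0.0669) without E14.5 wild-type replicate 1, where the call was lost. Dpys differed by 1.56 points and Dpyd by 1.76 points (exact permutation p = 0.0556 and 0.111, edgeR adjusted p = 0.115 and 0.16), and passed with 2.16 and 2.02 points when E18.5 mutant replicate 2 was left out (adjusted p = 0.00413 and 0.0444). Without E18.5 mutant replicate 1 these were 0.953 and 1.50 points and did not pass (adjusted p = 0.261 and 0.208). Of all genes, 37.5% passed in this window, 18.3% had both mutants above both wild-type samples at each stage, and the median difference was 1.93 points with 99.2% of genes higher. The Upb1 call is therefore 1 among 8313.

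By stage, the bodies and surroundings of all 3 genes lost methylation between the wild-type E10.5 embryo and the E14.5 liver. The body of Upb1 went from a mean of 80.7% to 60.4%, a fall of 20.3 points (edgeR adjusted p = 9.37e-18). The body of Dpys fell by 17.4 points (adjusted p = 8.74e-15) and that of Dpyd by 20.8 points (adjusted p = 7.05e-22). The 50 kb regions fell by 19.2, 12.5 and 17.1 points in the same order (adjusted p = 3.67e-42, 2.26e-16 and 6.23e-19). Of all genes, 77.1% passed for the body and 90.8% for the 50 kb region, and the median gene fell by 10.2 and 10.6 points.

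The TSS windows did not pass the same test. Upb1 differed by -2.39 points, Dpys by 1.36 and Dpyd by -0.19 between the wild-type E10.5 embryo and E14.5 liver (edgeR adjusted p = 0.496, 0.198 and 0.899), where 55.2% of all genes passed. Around the Upb1 TSS the call depended on the width, since 2 kb to each side gave a fall of 6.67 points (adjusted p = 0.0381). The Dpys step passed at either other read minimum, with 4.22 points at 3 reads and 2.14 at 10 reads (adjusted p = 0.0285 and 0.0466), and was -3.28 points with 2 kb to each side. Stage and tissue cannot be told apart between the E10.5 whole embryo and the E14.5 liver. The embryos were all male, and in the male E14.5 liver alone (wild-type replicate 1) the bodies of Upb1, Dpys and Dpyd were also lower than in either embryo, at 58.6%, 55.1% and 59.5%, a comparison with no test.

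From E14.5 to E18.5 the wild-type levels in liver rose again for some windows. The authors describe a liver of mainly erythroblasts at E14.5 and mainly hepatoblasts at E18.5, so stage and cell make-up cannot be told apart. The 50 kb region of Upb1 rose by 5.09 points (edgeR adjusted p = 0.00657) and the body of Dpyd by 6.57 points (adjusted p = 0.00675). The bodies of Upb1 and Dpys differed by 5.04 and 4.10 points (adjusted p = 0.0562 and 0.0988), and the 50 kb regions of Dpys and Dpyd by 3.36 and 3.93 points (adjusted p = 0.0911 and 0.113). Both calls were lost without E14.5 wild-type replicate 1, the male of that stage, at 3.22 points for Upb1 and 5.05 for Dpyd between female livers, and also without either wild-type E18.5 library. Conversely, the 4 other differences passed when either E18.5 mutant library, which no wild-type value uses, was left out of the common fit. The TSS windows differed by 4.77, -2.01 and -1.38 points (adjusted p = 0.361, 0.225 and 0.467). Of all genes 22.7% passed for the body, 37.6% for the 50 kb region and 0.135% for the TSS window.

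**Figure D4:**
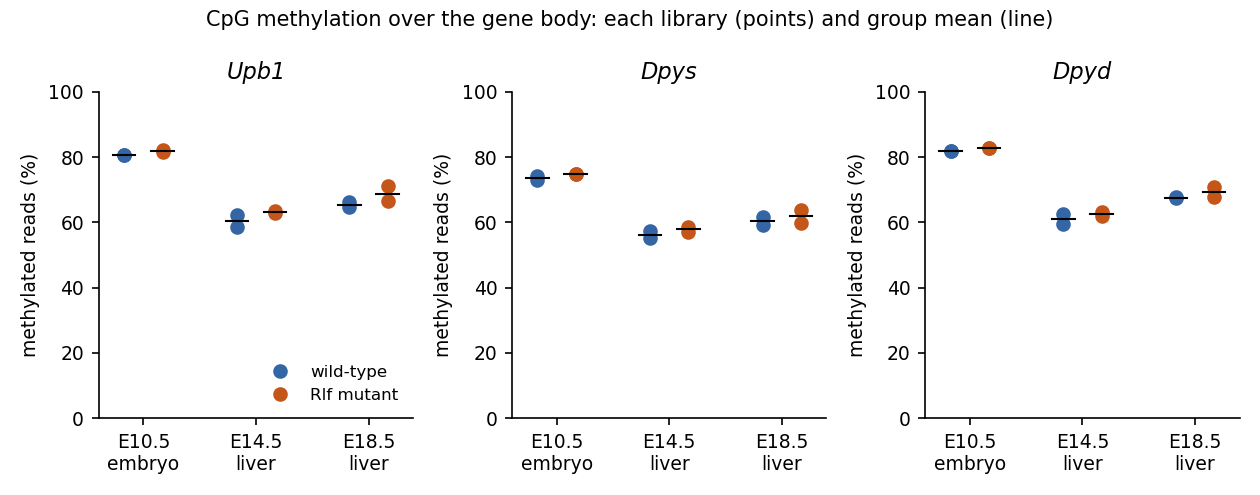
Methylation over the gene bodies by stage and genotype. Each point is 1 library (blue, wild-type; orange, mutant), the lines are group means, and the y axis is the percentage of methylated reads from 0 to 100%. All 3 genes lie above 73% in the E10.5 embryos and below 64% in E14.5 liver, and the genotype means are within 4 points of each other at each stage.

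In 1 kb tiles across each gene body and the 50 kb to each side of its TSS, no tile was called with an adjusted p of 0.05 and a difference over 15 points in any stage. Genome-wide such tiles made up 0.364% at E10.5, 0.123% at E14.5 and 0.133% at E18.5. At these stages 52, 76 and 60 tiles with at least 8 CpGs were tested around Upb1, 52, 134 and 66 around Dpyd, and 56, 82 and 68 around Dpys. On the adjusted p alone the shares were 0.708%, 0.414% and 0.201%. The tile over the Upb1 TSS, chr10:74869001-74870000, passed the p threshold at E10.5 with a difference of 13.0 points (61.1% and 66.8% against 77.5% and 76.5%, edgeR adjusted p = 0.0324). The tile at the start of Dpys, chr15:39688001-39689000, passed it at E18.5 with 4.21 points (3.86% and 1.75% against 5.38% and 8.65%, adjusted p = 0.0348).

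Over tiles with enough CpGs in all 12 libraries, 44 of 50 around Upb1 had a higher mean over the stages in the mutants, with a median difference of 2.40 points and a range of -5.53 to 9.23 points. For Dpys 44 of 54 were higher (median 1.62 points) and for Dpyd 28 of 46 (median 0.72 points). Over all 581510 such tiles of the genome 80.6% were higher, with a median of 1.69 points. Without E18.5 mutant replicate 1, 40, 36 and 28 tiles were higher and the medians were 1.37, 1.03 and 0.652 points, against 70.7% and 1.10 points over all tiles. The largest difference around Upb1 was that of the TSS tile, at 9.23 points, with 13.0, 8.69 and 5.96 points by stage, and 9.30 points without that library. The whole first exon of Upb1, 249 bases, lies in this tile.

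The other tiles of Upb1 that differed by over 5 points in either direction were chosen after their values were seen. The tile at chr10:74902001-74903000, in the gene body, was lower in the mutants, at -5.53 points (-9.0, 0.69 and -8.29 by stage). The tile at the 3′ end of the gene, chr10:74904001-74905000, holds the last 424 exonic bases and differed by 8.77 points (7.90, 8.49 and 9.93 by stage, mean of 8.91 points without E18.5 mutant replicate 1). The tiles at chr10:74909001-74910000 and chr10:74910001-74911000 differed by 9.02 and 5.98 points (8.90 and 3.84 points without it) and lie past the end of Upb1, in an intron of 1110038D17Rik. The largest tile difference of Dpys was in the other direction, -6.02 points at chr15:39658001-39659000, which holds 142 exonic bases, with -5.78, -3.41 and -8.86 points by stage (mean of -7.16 points without it). That of Dpyd was -5.14 points at chr3:118887001-118888000, in an intron, with -1.41, -7.01 and -7.01 points (mean of -5.43 points without it).

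**Figure D5:**
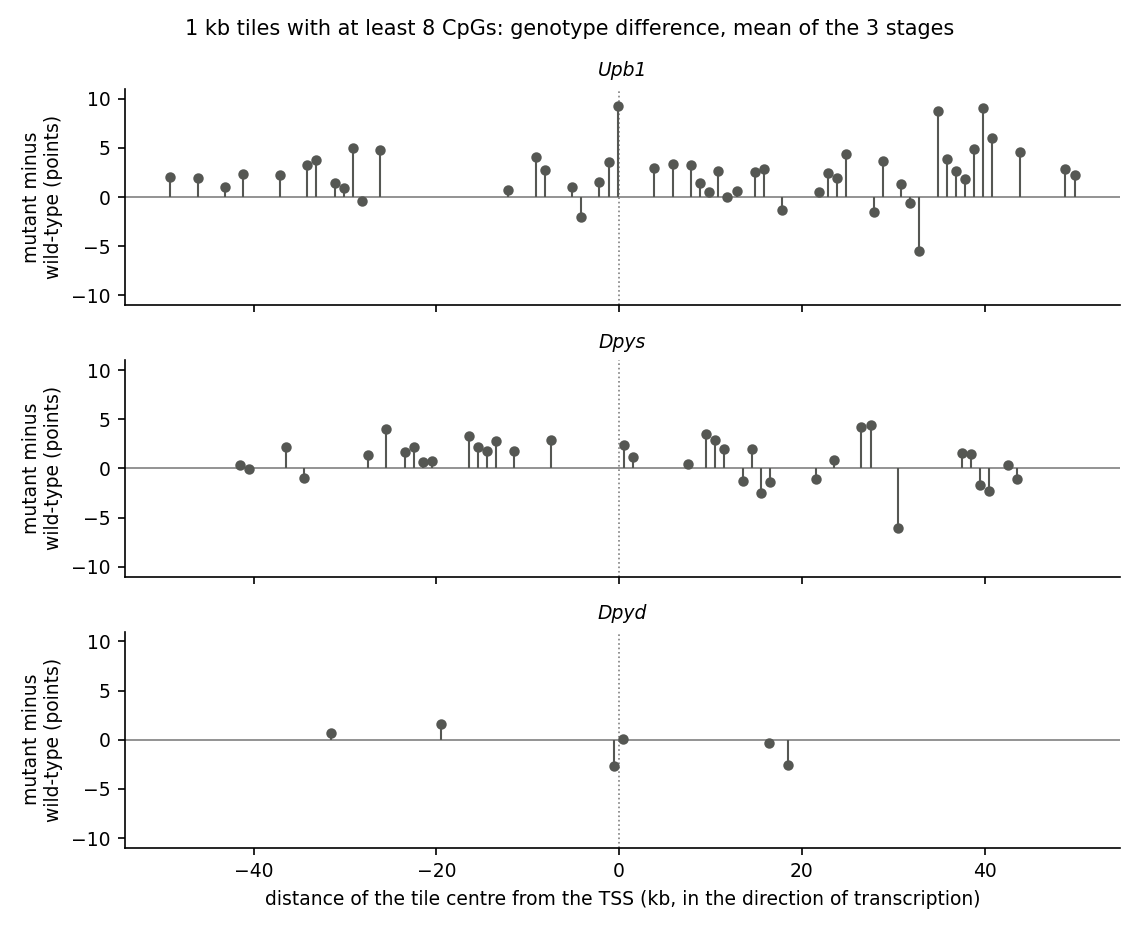
Mutant minus wild-type methylation, in points and averaged over the 3 stages, of the 1 kb tiles within 50 kb of each TSS that had at least 8 CpGs in all 12 libraries. The x axis is the distance of the tile centre from the TSS in kb, in the direction of transcription, and each stem is 1 tile. The Upb1 tile over the TSS stands highest at 9.23 points, most Upb1 stems point up, and Dpyd has few tiles in this range.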

How the data were processed

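WGBS was made from 12 samples and RNA-seq from 6. The members and gene lists were chosen with earlier results of these data known. For WGBS the authors aligned reads with Bismark and Bowtie2 to mm9 carrying FVB/NJ substitutions, removed PCR duplicates, merged strands and deposited counts of methylated and unmethylated reads per CpG. A deposited column of rounded percentages was not used. For RNA-seq the authors aligned single-end reads with TopHat to mm9 and deposited raw counts per gene from HTSeq, run without strand on Ensembl annotation. The notes of the submitters also name BWA and DESeq. Symbols came from GENCODE vM1 (37205 of 37991 genes matched), as did gene positions, and the sequences are of the mm9 reference, in which 96.97% of the chromosome 10 positions of the files are CpGs.

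RNA counts were tested with edgeR 4.0.16 (quasi-likelihood, TMM scaling, filterByExpr) in R 4.3.3 between genotypes, and methylated and unmethylated reads in 1 model with an intercept per library and a term per genotype and stage, over windows with at least 3 CpGs of at least 6 reads in all 12 libraries. Tiles of 1 kb needed at least 8 CpGs in the 4 libraries of a stage. Adjusted p-values (Benjamini-Hochberg) are over all genes or tiles tested and a call is an adjusted p under 0.05. Exact permutation tests (two-sided) exchanged the genotypes within each stage, and are not adjusted: 9 were made on windows with all libraries, and they were repeated under the alternatives and made once per tile, where their p is not printed. An exact permutation test in a single stage of 2 against 2 could not go below 0.33. Scripts were checked on simulated data. The genes named beside the members are Rlf, listed genes that were called, the 3 listed genes with the highest level per length, overlapping protein-coding neighbours, the 3 genes most alike in RNA, and called or largest tiles. Other listed genes are given as examples chosen after their values were seen.

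Depths are given with the results, and counting intervals (Wilson, 95%) cover counting error only. These intervals take the counts at neighbouring CpGs as independent, though 1 read can cover several. Each sample is taken as 1 animal, which the sources used here do not spell out for every assay, so p-values measure the spread between these samples. Same-numbered RNA libraries deviated together (correlations of 0.123, 0.238 and 0.42 over 14183 genes) and were paired for the blocked fit. The number also marks the sex (replicates 1 and 2 male, replicate 3 female), which these correlations do not separate from pairing. With a sex term in place of the block 208 genes passed in edgeR, with 0 in the lists of pathway genes and relatives. Alternatives were RLE scaling, no count filter, DESeq2 1.42.0, a sex term, other read minimums, windows and tiles, means over CpGs, a replicate block and leaving out each library. The values of CpG groups and tiles without E18.5 mutant replicate 1, and the split of the hepatocyte marker sum, were added after seeing the data.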

Additional observations from a re-analysis of the deposited data

How the results depend on the processing

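The Upb1 TSS difference between genotypes over the stages kept its direction under every alternative, and its call under every one with a test. RNA differences of the members kept their direction, though with 1 library left out that of Dpys ranged from -0.40 to -0.0205 and that of Dpyd from 0.20 to 0.34 on the log2 scale. Calls over all genes numbered 197, and 532 with no count filter, 460 with the replicate block, 256 with DESeq2 and 66 (without mutant replicate 1) to 224 with 1 library left out. In the lists of pathway genes and relatives 1 gene was called higher and 1 lower (Vnn1 and Dut) with no filter and with the block, and 1 lower (Dut) with DESeq2. WGBS replicate numbers were not taken to pair the samples, although at E14.5 the number also marks the sex. The correlations by stage were 0.0624, -0.0341 and -0.0264 for TSS windows, 0.155, 0.0199 and -0.00815 for bodies, and 0.219, -0.032 and -0.00536 for 50 kb regions. At E10.5 those of bodies and 50 kb regions exceeded the lowest RNA correlation, 0.123. The WGBS replicate block changed 3 calls, all to passing: the Upb1 body from E14.5 to E18.5 (5.04 points, adjusted p = 0.0264), the Upb1 TSS by genotype at E10.5 (adjusted p = 0.0116) and the Dpys TSS by genotype at E18.5 (adjusted p = 0.00468).

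Other windows moved the TSS values. With 2 kb to each side the stage fall of Upb1 passed (-6.67 points), that of Dpys was -3.28 points, and Dpyd differed between genotypes by 0.443 points over the stages and 1.66 at E14.5. With 500 bases Dpys by genotype was not called (2.44 points) and Dpyd gave 0.393 points over the stages, 0.0727 at E10.5, 0.165 at E14.5 and 0.642 from E10.5 to E14.5. With at least 3 reads Dpys from E10.5 to E14.5 passed (4.22 points), Dpyd gave 0.0666 for that step and -0.231 by genotype at E18.5, and Dpys in 50 kb passed the permutation test (1.58 points, exact p = 0.0463). With at least 10 reads Dpys by genotype was not called (2.44 points) and its first step passed (2.14 points). Without the gene body the 50 kb differences of Dpys by genotype (2.06 points) and from E14.5 to E18.5 (5.66 points for Dpys and 6.15 for Dpyd) passed. As a mean over CpGs, the TSS steps were -0.00416 (Dpys) and -1.26 (Dpyd) from E10.5 to E14.5 and 3.50 (Upb1) and -0.28 (Dpyd) from E14.5 to E18.5, the 50 kb step of Dpys was -13.8, and Dpyd by genotype was 0.227 at the TSS, 1.25 in the body (not passing) and 1.26 in 50 kb (passing, exact permutation). With no minimum difference 1 tile was called for Upb1 at E10.5 and 1 for Dpys at E18.5.

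With 1 library left out, the genotype differences ranged over 1.79 to 3.27 points (Upb1 body), 0.84 to 2.15 (Dpys body), 0.952 to 1.97 (Dpyd body), 2.34 to 3.59 (Upb1 50 kb), 0.953 to 2.16 (Dpys 50 kb) and 1.29 to 2.23 (Dpyd 50 kb). Without E18.5 mutant replicate 2 all of these passed, while without E14.5 wild-type replicate 1 Upb1 in 50 kb did not. Single stages ranged over -0.757 to 1.66 (Dpyd TSS, E18.5), -0.402 to 3.53 (Dpys body, E18.5) and -0.173 to 2.29 (Dpyd 50 kb, E10.5). Wild-type steps from E10.5 to E14.5 ranged over -5.64 to 0.853 (Upb1 TSS) and -0.466 to 0.0795 (Dpyd TSS). From E14.5 to E18.5 the bodies ranged over 3.21 to 6.86 (Upb1), 2.82 to 5.38 (Dpys) and 5.05 to 8.10 (Dpyd), and the 50 kb regions over 3.22 to 6.97, 2.18 to 4.54 and 2.52 to 5.34 in that order. The causes were not tested. With 2 samples a group the SD reached 4.59 points (Upb1 TSS, wild-type E10.5), which limits what single stages can show.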
